A study of Mus musculus with 8 samples.

Results

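The clustered histone genes are the 66 genes whose symbol in the deposited table begins with Hist1h, Hist2h, Hist3h or Hist4h, out of 25050 genes measured. They were represented by 71 probe sets, and where a gene had several, the brightest was used. RNA had been taken from mammary epithelial cells of FVB females in a first pregnancy or lactation, freed of adipocytes by rapid enzymatic digestion of the tissue. There were 4 arrays at day 14 of pregnancy, when the gland undergoes secretory differentiation, and 4 at day 4 of lactation, after secretory activation. All animals were wild type by their titles, and no treatment or genetic change separated the stages. The labels do not say whether each array came from its own mother, so the p-values speak only for the spread among these 8 samples, part of which may be technical.

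Histones are the proteins around which DNA is wound. An octamer of H2A, H2B, H3 and H4 forms the nucleosome core, and the linker histone H1 binds where DNA enters and leaves it. Most of these proteins are encoded by small intronless genes that lie in clusters, and their mRNAs end in a stem-loop in place of a poly(A) tail. Transcription of the clusters and the stability of their mRNAs rise as cells replicate their DNA and fall afterwards, so their transcript levels are widely used as a sign of S phase. Some clustered genes can also give polyadenylated transcripts outside S phase. Examples known from human cells are the counterparts of Hist1h2bc, Hist2h2be and Hist1h1c. The alveolar epithelium proliferates through pregnancy and again around birth, before milk secretion is fully established.

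The 66 genes comprised 5 for H1, 19 for H2A, 18 for H2B, 11 for H3 and 13 for H4. By cluster, 53 belonged to Hist1 on chromosome 13, 9 to Hist2 on chromosome 3, 3 to Hist3 on chromosome 11 and 1, Hist4h4, lay on chromosome 6. Paralogs of 1 type have nearly the same coding sequence, and probes can be shared among them. The probe sets of Hist1h4m and Hist1h4n held the same values on all 8 arrays, as did the 2 probe sets of Hist1h2bq. Values of the H2A, H2B, H3 and H4 genes are therefore uncertain as to the member, and the members are not independent measurements.

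Promoter sequences were available from RefSeq (GRCm38.p6) for 58 of the 66 genes, and 4 are shown here because these genes carry the falls described below: Hist3h2a and Hist1h1b, with the most negative change of the H2A and H1 genes, Hist1h4a, the H4 gene whose call was kept most often, and Hist1h2bj, a called H2B gene. Each is the 250 bases before the start site, written 5′ to 3′ on the strand of the gene. Capitals mark motif matches on either strand. The CCAAT box reads ATTGG when it lies on the opposite strand. The TATA box was searched as TATAAA. The octamer element, known from H2B promoters, was searched by its core ATTTGCA, which reads TGCAAAT on the opposite strand.
Hist3h2a (H2aw, chr11:58954435-58954684, plus strand): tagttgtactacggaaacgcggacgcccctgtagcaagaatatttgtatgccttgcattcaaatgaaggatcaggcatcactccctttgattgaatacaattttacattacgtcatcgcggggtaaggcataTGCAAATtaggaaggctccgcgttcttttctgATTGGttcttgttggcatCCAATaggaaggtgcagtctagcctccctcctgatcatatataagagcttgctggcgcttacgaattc
Hist1h1b (H1f5, chr13:21780626-21780875, minus strand): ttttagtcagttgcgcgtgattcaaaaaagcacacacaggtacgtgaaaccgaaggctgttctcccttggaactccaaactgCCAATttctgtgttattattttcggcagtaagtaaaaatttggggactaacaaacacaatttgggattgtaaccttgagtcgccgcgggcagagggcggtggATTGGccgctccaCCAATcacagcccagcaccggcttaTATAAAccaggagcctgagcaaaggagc
Hist1h4a (H4c1, chr13:23761250-23761499, minus strand): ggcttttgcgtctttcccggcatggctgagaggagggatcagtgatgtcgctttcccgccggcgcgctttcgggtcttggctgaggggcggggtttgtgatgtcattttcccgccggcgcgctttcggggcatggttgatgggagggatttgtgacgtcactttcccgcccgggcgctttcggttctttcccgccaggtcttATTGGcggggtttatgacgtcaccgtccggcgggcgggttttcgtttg
Hist1h2bj (H2bc11, chr13:22042948-22043197, plus strand): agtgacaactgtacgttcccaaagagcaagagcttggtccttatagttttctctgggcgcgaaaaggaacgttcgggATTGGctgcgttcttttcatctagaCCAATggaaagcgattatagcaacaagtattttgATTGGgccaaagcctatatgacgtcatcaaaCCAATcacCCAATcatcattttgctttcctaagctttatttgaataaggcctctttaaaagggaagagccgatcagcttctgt

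Among the promoters of clustered histone genes, 48 of 58 (82.8%) held CCAAT, against 37.5% of the 27025 genes with a promoter window of that length. The motif was in all 5 H1, all 17 H2A and all 15 H2B windows, in 8 of 9 for H3, and in 3 of 12 for H4, 25%. TATAAA was found in 28 of 58 (48.3%) against 14.3% of all genes. ATTTGCA was found in 14 of 58 (24.1%) against 4.02%, in 7 of 17 H2A and 7 of 15 H2B windows and in no H1, H3 or H4 window. H2A and H2B genes are often neighbours on the chromosome, and whether their windows share a match was not examined. None of the marked matches in the 4 printed windows overlap. A match is a description of the letters and not evidence of a bound factor. RefSeq's table had no window for Hist1h2bc.

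Values are log2 array signals as deposited, so a difference of 1 is a doubling in signal. Lactation was compared with pregnancy in limma over all 25050 genes, and a gene was called at a Benjamini-Hochberg adjusted p under 0.05. Lactation replicate 3 stood apart, as the lowest of all 8 arrays in 53 of the 66 histone genes, and counts without it are given below. This was not counted over all genes. Among the gene lists described below, the median deviation on this array ran from -0.50 for mitosis to 0.35 for basal markers. What set the histone genes low on this array was not tested. At lactation day 4 a single clustered histone gene, Hist1h2bc, was higher, and 19 of 66 (28.8%) were lower. Over all genes 9.73% were called higher and 16.1% lower. Of the 34 members with a mean of at least 10, 47.1% were called lower, against 38.3% of 650 other genes that bright. The median log2 fold change of the 66 genes was -0.26, against 0.01 over all genes, and 55 of the 66 were below 0. In bulk samples such as these, fewer cells of a kind and less RNA per cell cannot be told apart. The falls were small, from -0.20 to -0.59, and 11 of the 19 had an adjusted p between 0.04 and 0.05 in limma. They depended on the scaling of the arrays and on single arrays, as given below, whereas the rise of Hist1h2bc and the fall of Hist3h2a were called under all 18 alternative settings.

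**Figure D1:**
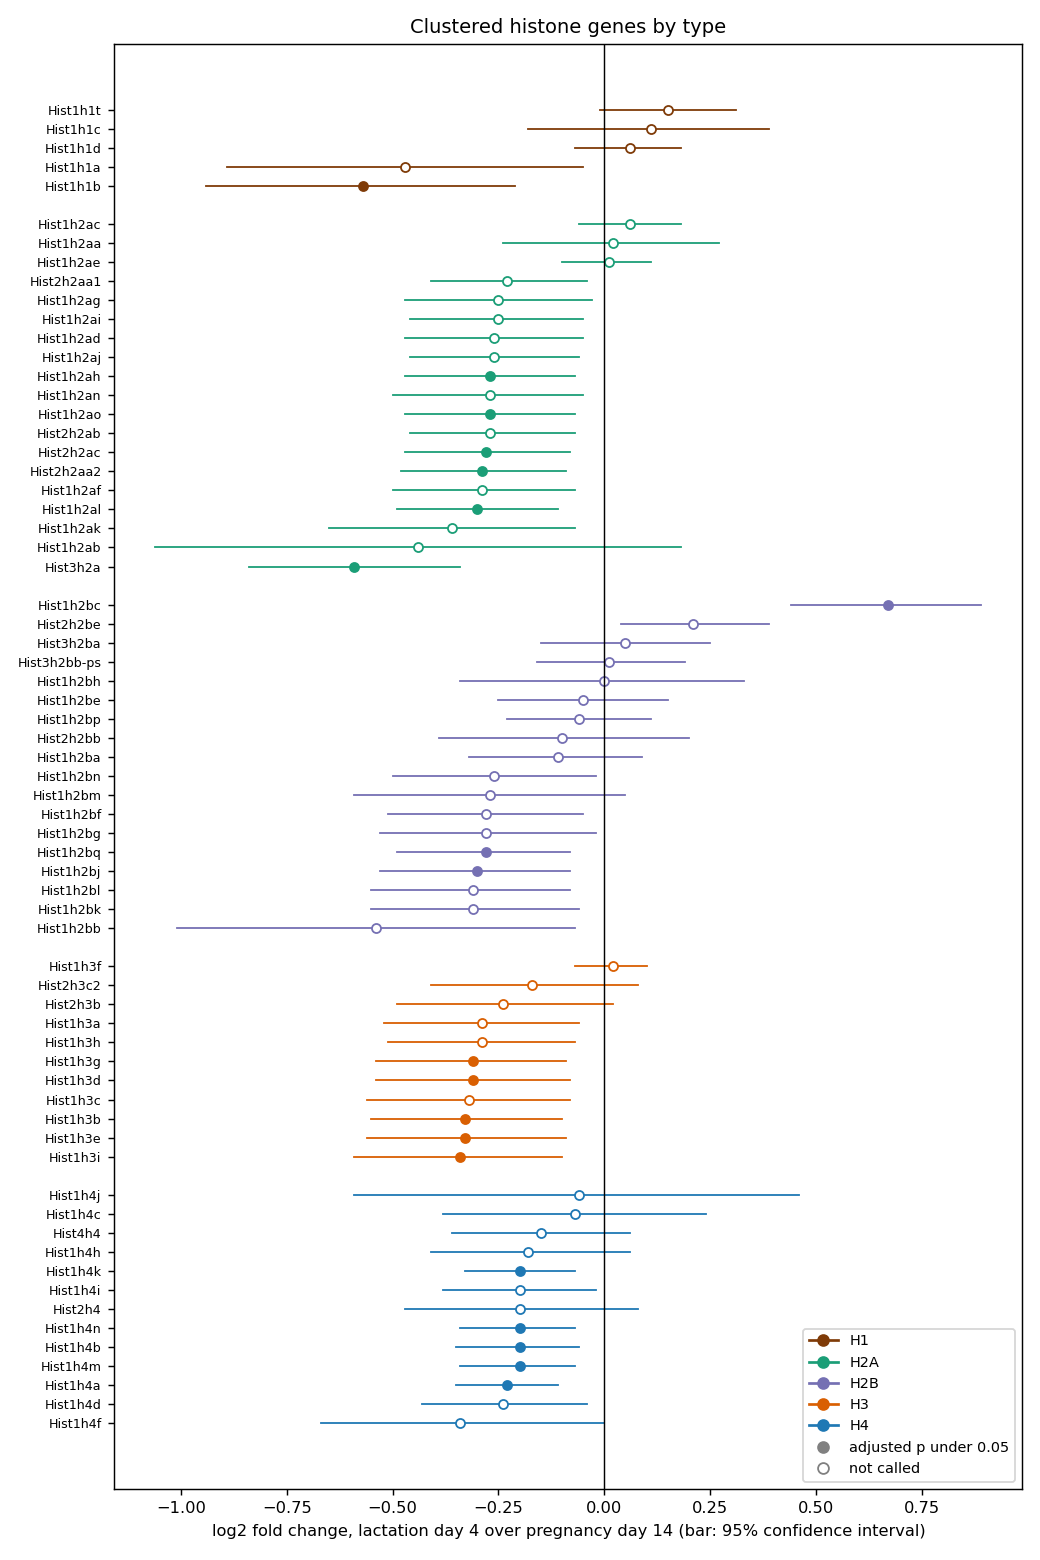
Log2 fold change of each of the 66 clustered histone genes, lactation day 4 over pregnancy day 14, grouped by histone type, with the 95% confidence interval of limma as a bar. Filled points passed an adjusted p of 0.05. Hist1h2bc stands at 0.67, most H2A, H2B, H3 and H4 genes lie between -0.34 and -0.17, and Hist3h2a and Hist1h1b lie lowest at -0.59 and -0.57.

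Hist1h2bc (H2bc4 in current nomenclature), 1 of the genes for H2B, was the only member called higher. Another 10 members had log2 fold changes above 0, up to 0.21, and were not called. Its values were 9.80, 9.42, 9.47 and 9.56 on the 4 lactation arrays and 8.90, 8.94, 9.03 and 8.72 on the 4 pregnancy arrays. Every lactation array lay above every pregnancy array. The mean went from 8.90 ± 0.13 to 9.56 ± 0.17 (SD, n = 4 per stage), which is 1.59-fold higher and 0.67 on the log2 scale (SE 0.10, 95% confidence interval 0.44 to 0.89, limma adjusted p = 0.00121). Under the 18 alternative settings the log2 fold change ran from 0.59 to 0.84, and the highest limma adjusted p was 0.00536. In RefSeq's order Hist1h2bc is flanked by Hist1h2ac, an H2A gene, and by Hist1h1t. Hist1h2ac had values of 2.75 to 2.93 in lactation and 2.72 to 2.92 in pregnancy, close to the lowest signal on any array, 2.04, and its log2 fold change was 0.06 (limma adjusted p = 0.44).

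The counterparts of Hist2h2be and Hist1h1c are also known for polyadenylated transcripts in human cells. They are examples added afterwards and not a full list of such genes. Like Hist1h2bc, both lie among the 11 members with a log2 fold change above 0, while 55 were below 0. Other members with such transcripts were not collected, so these examples do not speak for such genes as a class. Polyadenylation was not tested here. Hist2h2be, an H2B gene, had values of 4.37, 4.42, 4.46 and 4.33 in lactation and 4.19, 4.17, 4.01 and 4.35 in pregnancy. The stages overlapped through pregnancy day 14 replicate 4, and the log2 fold change of 0.21 missed the threshold (SE 0.079, limma adjusted p = 0.0713). The linker histone gene Hist1h1c had values of 6.83 to 7.20 in lactation and 6.62 to 7.08 in pregnancy, and its log2 fold change was 0.11 with a 95% confidence interval of -0.18 to 0.39 (limma adjusted p = 0.554).

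**Figure D2:**
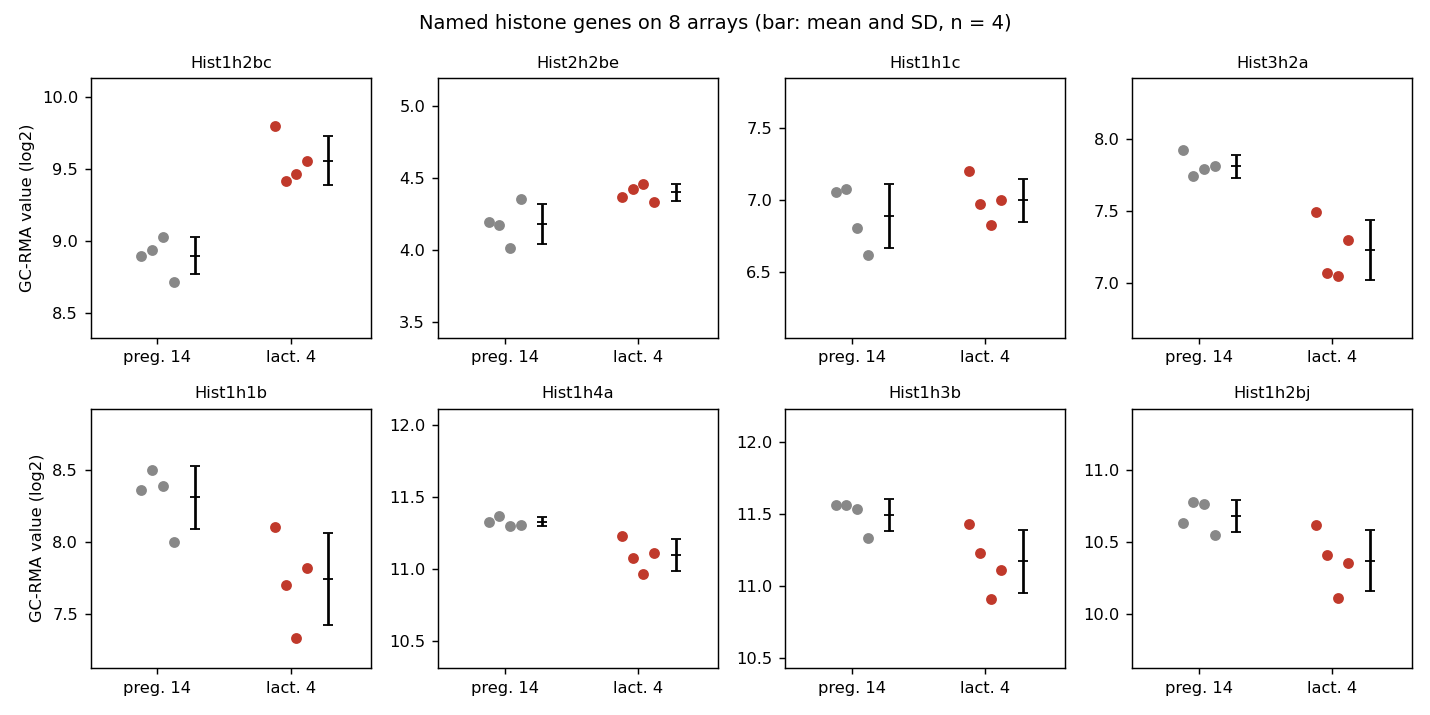
Deposited log2 values of 8 clustered histone genes on each array, pregnancy day 14 in grey and lactation day 4 in red, with the mean and SD (n = 4) beside the points. Each panel spans the same range of log2 units. The stages do not overlap for Hist1h2bc (higher in lactation), Hist3h2a and Hist1h4a (lower in lactation), and overlap for the others.

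Among the 5 linker histone genes, Hist1h1b (H1f5) fell. Its values were 8.10, 7.70, 7.33 and 7.82 in lactation and 8.36, 8.5, 8.39 and 8.0 in pregnancy, so that lactation replicate 1 lay above pregnancy replicate 4. The mean of 8.31 ± 0.22 in pregnancy was 7.74 ± 0.32 in lactation. This difference of -0.57 (SE 0.164) passed the threshold in limma with an adjusted p of 0.0288, a call that ended under 7 of 18 alternatives. Hist1h1a, encoding H1.1, had values of 7.25 to 8.03 in lactation and 7.87 to 8.28 in pregnancy and missed the threshold, with a lactation minus pregnancy difference of -0.47 (limma adjusted p = 0.0906). Hist1h1d and the testis-specific Hist1h1t had log2 fold changes of 0.06 and 0.15 and were not called, at mean values of 4.03 and 3.80. The median over the 5 H1 genes was 0.06.

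Of 19 H2A genes 6 fell (31.6%, against 16.1% of all genes), and their median was -0.27. Hist3h2a (H2aw), of the small Hist3 cluster, changed most. Its values were 7.49, 7.07, 7.05 and 7.30 in lactation and 7.92, 7.74, 7.79 and 7.81 in pregnancy, with no overlap. The log2 fold change was -0.59 (SE 0.112, 95% confidence interval -0.84 to -0.34, limma adjusted p = 0.00425), and ran from -0.67 to -0.41 under the 18 alternatives. The other Hist3 genes, Hist3h2ba and the pseudogene Hist3h2bb-ps, had log2 fold changes of 0.05 and 0.01.

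The other called H2A genes were Hist1h2al, Hist2h2aa2, Hist2h2ac, Hist1h2ah and Hist1h2ao, with log2 fold changes of -0.30 to -0.27. RefSeq lists Hist1h2al as a transcribed pseudogene at a locus away from the main cluster. Its signal was 10.98 ± 0.17 in lactation and 11.28 ± 0.10 in pregnancy, and which paralogs contribute to it was not tested. The 13 H2A genes with a mean of at least 10 had log2 fold changes from -0.30 to -0.23, whether called or not. Of these 13, 38.5% were called lower, against 38.3% of other genes that bright. Hist1h2aa, encoding the testis variant TH2A, had 5.24 to 5.75 in lactation and 5.40 to 5.58 in pregnancy and was not called (log2 fold change 0.02, limma adjusted p = 0.928).

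Of 18 H2B genes 2 fell (11.1%, below the 16.1% of all genes) besides the rise of Hist1h2bc, and the median was -0.19. Of the 5 with a mean of at least 10, 1 fell (20%, against 38.3% of other genes that bright). Hist1h2bj had values of 10.62, 10.41, 10.11 and 10.35 in lactation and 10.63, 10.78, 10.76 and 10.55 in pregnancy, with the stages overlapping between lactation replicate 1 and pregnancy replicate 4. Its log2 fold change was -0.30 (SE 0.101, limma adjusted p = 0.0497), and that of Hist1h2bq was -0.28 (limma adjusted p = 0.0495). Both calls ended under most alternatives, 11 of 18 and 12 of 18. Hist1h2bb had the most negative estimate of the type, -0.54, with values from 6.60 to 7.54 in lactation and 7.43 to 8.11 in pregnancy, and missed the threshold (SE 0.211, limma adjusted p = 0.0852). Hist1h2ba, the testis variant TH2B, was not called, with 5.72 to 6.0 in lactation and 5.87 to 6.01 in pregnancy.

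Of 11 H3 genes 5 fell (45.5%, against 16.1% of all genes), namely Hist1h3i, Hist1h3b, Hist1h3e, Hist1h3d and Hist1h3g, with log2 fold changes of -0.34 to -0.31 and limma adjusted p-values of 0.0422 to 0.0487. The median of the type was -0.31. Of the 10 H3 genes with a mean of at least 10, 5 fell (50%, against 38.3% of other genes that bright). Hist1h3b had values of 11.43, 11.23, 10.91 and 11.11 in lactation and 11.56, 11.56, 11.53 and 11.33 in pregnancy. The stages overlapped for all 11 H3 genes, and lactation replicate 3 was the lowest array in all 11. Hist1h3f, the H3 gene with the highest estimate, had a mean of 2.56 and a log2 fold change of 0.02. The 5 calls ended under 11 or 12 of the 18 alternatives each. A second probe set, of low signal, for Hist2h3c2 went the other way, with 3.64 to 4.21 in lactation and 2.95 to 3.49 in pregnancy (log2 fold change 0.73, limma adjusted p = 0.0127 with every probe set tested), while the brighter probe set used for that gene gave -0.17 and was not called. That probe set was singled out after its values were seen.

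Of 13 H4 genes 5 fell (38.5%, against 16.1% of all genes), all 13 were below 0 and the median was -0.20. All 5 were among the 6 with a mean of at least 10 (83.3%, against 38.3% of other genes that bright). The SD of the pregnancy arrays was 0.03 to 0.04 for the 5 called H4 genes and 0.05 to 0.20 for the other 8. Hist1h4a had values of 11.23, 11.08, 10.97 and 11.11 in lactation and 11.33, 11.37, 11.30 and 11.31 in pregnancy, with no overlap. Its log2 fold change was -0.23 (SE 0.056, limma adjusted p = 0.0138), a call that ended only with arrays centred on the median of the brighter 60% of genes, where the log2 fold change was -0.06. Hist1h4b, Hist1h4k and the identically measured Hist1h4m and Hist1h4n each fell by 0.20, with limma adjusted p-values of 0.0342 to 0.0442, and these calls ended under 10 to 12 of 18 alternatives. Hist1h4f had the most negative estimate of the type, -0.34, and missed the threshold (limma adjusted p = 0.125). Hist1h4j, with values of 4.34 to 5.67 in lactation, spread most within a stage among the H4 genes and had a 95% confidence interval of -0.59 to 0.46. Hist4h4 was not called (log2 fold change -0.15, limma adjusted p = 0.253).

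All 4 arrays of a stage lay apart from the other stage in 9 clustered histone genes. Hist1h2bc was higher and 8 were lower (12.1% of the 66), and over all genes 17.4% were lower without overlap and 12.1% higher. The share of members that did not overlap was therefore not above that of all genes. Lactation replicate 1 lay above pregnancy replicate 4 in 53 of the 66 genes, and lactation replicate 3 was mostly lowest. Neither was counted over all genes, and paralogs can share probes. Among the 34 genes with a mean of at least 10, the deviation from each gene's own mean ran from -0.45 to -0.24 on lactation replicate 3, from -0.04 to 0.17 on lactation replicate 1, from -0.08 to 0.10 on pregnancy replicate 4 and from 0.06 to 0.28 on the other pregnancy arrays. All 34 had a negative log2 fold change, and 16 of them were called lower. None of the 16 genes with a mean under 6 was called.

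**Figure D3:**
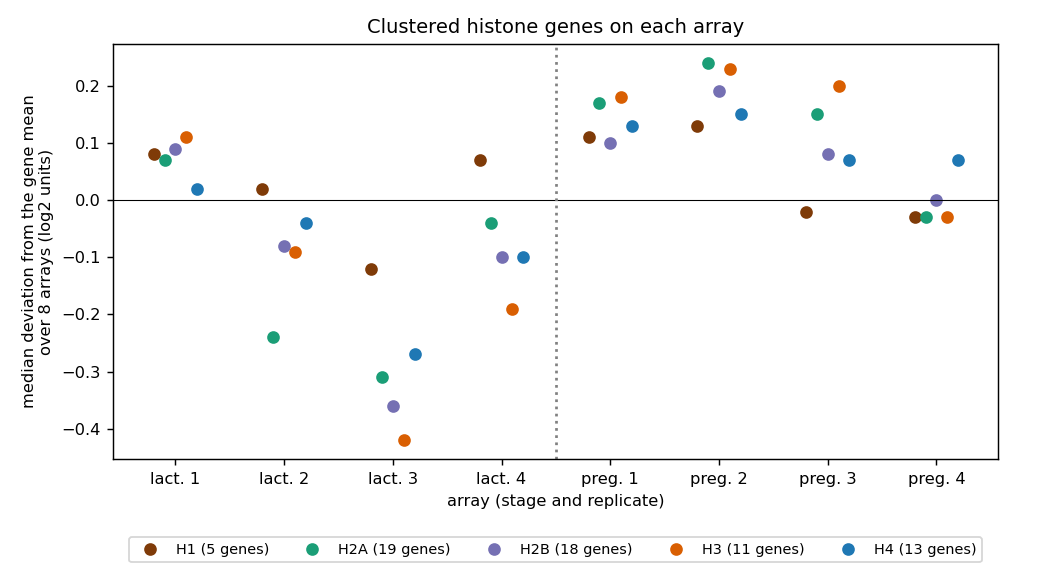
Median deviation of the clustered histone genes from their own mean over the 8 arrays, in log2 units, for each histone type on each array, lactation arrays on the left and pregnancy arrays on the right. Lactation replicate 3 is lowest, at -0.42 for H3 and -0.36 for H2B, and lactation replicate 1 lies slightly above pregnancy replicate 4 for all types but H4.

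Leaving out single arrays changed the number of members called lower. It was 37 without lactation replicate 1 and 27 without pregnancy replicate 4, but 2 without lactation replicate 3 and 2 without pregnancy replicate 1, 2 or 3, in each case Hist3h2a and Hist1h4a. It was 4 without lactation replicate 2 and 8 without lactation replicate 4. Of all 25050 genes, 4025 were called lower with all arrays. Without lactation replicate 1, 2, 3 or 4 this was 3438, 3284, 3939 and 3498 genes. Without pregnancy replicate 1, 2, 3 or 4 it was 3085, 3193, 2878 and 3331. Hist1h2bc was called higher each time, and the median log2 fold change of the 66 genes stayed between -0.33 and -0.18. The number of members called lower also moved with the scaling. With arrays centred on the median of all genes 4 members were called lower, and after quantile normalization 5, and the median of the 66 was -0.22 in both. Arrays were also centred on the median of the brighter 60% of genes, a setting added after the data were seen. There the median of the 66 was -0.08 and only Hist3h2a was called lower. In the same setting 7 of the 66 were called higher (Hist1h2bc, Hist2h2be and 5 genes of low signal). Of all 25050 genes, 10807 were then called higher and 2373 lower, and the median of all genes moved from 0.01 to 0.19. Without rescaling, 650 other genes with a mean of at least 10 had a median of -0.10 and 38.3% of them were called lower, against 47.1% of the 34 histone genes of that signal.

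**Figure D4:**
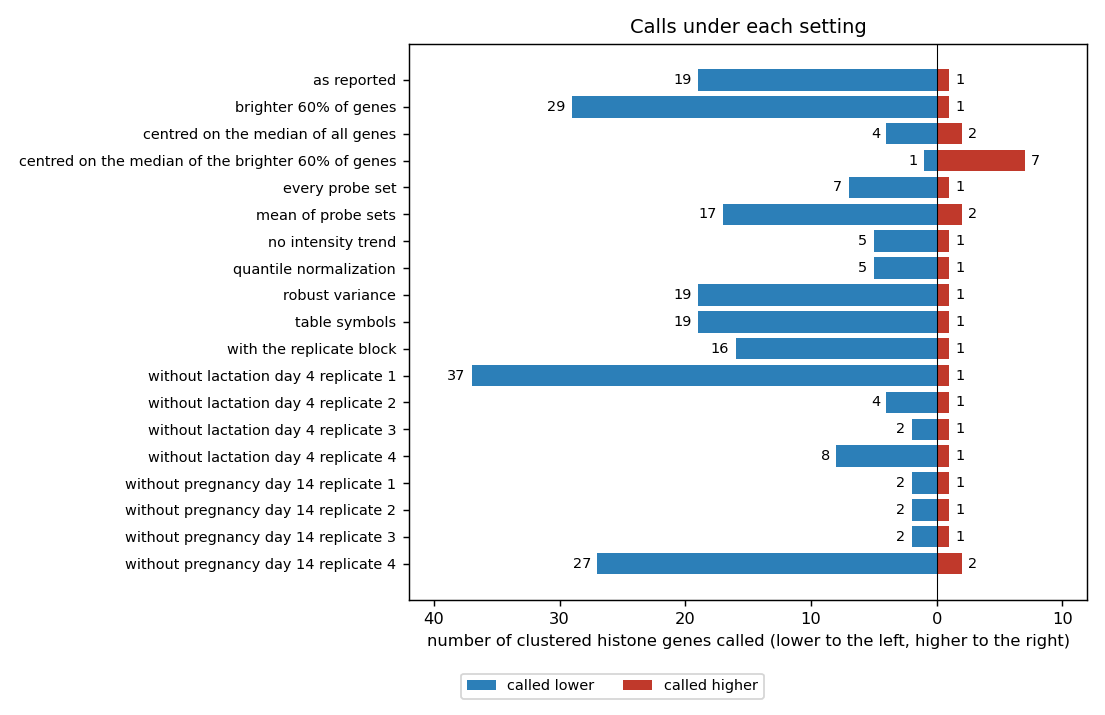
Number of clustered histone genes called lower (blue, to the left) and higher (red, to the right) at lactation day 4 under the reported setting and 18 alternatives. Calls of lower genes run from 1 to 37, while at least 1 gene, Hist1h2bc, is called higher under each.

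Genes that make, process and handle histones were described from lists chosen for their known roles. Of 15 genes for histone transcription and mRNA processing 6 fell (40%, against 16.1% of all genes). In this list 1 gene rose (6.67%, against 9.73%), and the median was -0.25. Slbp, the protein that binds the stem-loop of histone mRNAs, had values of 5.63 to 5.89 in lactation and 6.19 to 6.32 in pregnancy and fell by 0.48 (SE 0.088, limma adjusted p = 0.00361). Npat, the coactivator of histone gene clusters, fell by 0.51 from 6.72 ± 0.17 to 6.20 ± 0.06 (limma adjusted p = 0.00529), and Lsm10, of the U7 particle that cleaves histone pre-mRNA, fell by 0.57 (limma adjusted p = 0.00361). These 3 were called under all 18 alternatives and had no overlap between stages. Eri1, an exonuclease that acts on the 3′ end of histone mRNA, rose by 0.42 (limma adjusted p = 0.043), a call that ended under 9 of 18 alternatives.

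Of 19 histone chaperones 9 fell (47.4%, against 16.1% of all genes) and none rose (against 9.73%), with a median of -0.23. Nap1l1, a chaperone of H2A and H2B, fell by 0.88 from 8.46 ± 0.05 to 7.58 ± 0.21 (limma adjusted p = 3.63e-04). Ssrp1, a subunit of the FACT complex, fell by 0.69, and Atrx, which with Daxx deposits H3.3, by 0.60. Among 11 variant histones outside the clusters 4 fell (36.4%, against 16.1% of all genes) and none rose. These lists were not matched to all genes by signal. H2afy, encoding macroH2A1, fell by 0.81 (limma adjusted p = 1.62e-04), H2afv, encoding an H2A.Z, by 0.79, and the H3.3 gene H3f3b by 0.66 (SE 0.067, limma adjusted p = 1.27e-04), with 9.60 to 9.81 in lactation and 10.27 to 10.42 in pregnancy. The fourth, H3f3a, which lies outside the rule for named genes, fell by 0.43. The first 3 variants and the 3 chaperones named were called under all 18 alternatives. The remaining 7, among them H2afx, known for marking DNA breaks, and the centromeric Cenpa, had log2 fold changes of -0.24 to 0.10 and were not called.

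Of 46 DNA replication genes 8 fell (17.4%) and 2 rose (4.35%), with a median of -0.12. The share that fell was close to the 16.1% of all genes and the share that rose was below 9.73%. Mcm7, a subunit of the replicative helicase, fell by 0.97, Prim2, of primase, by 0.60 and Pole2, of polymerase epsilon, by 0.58, while the checkpoint protein gene Clspn rose by 0.80 and the flap endonuclease Fen1 by 0.62 (limma adjusted p = 4.91e-04, 0.00265, 0.0123, 0.00163 and 0.0164). Pcna, the sliding clamp, had values of 9.25, 9.20, 8.77 and 9.20 in lactation and 9.01 to 9.32 in pregnancy. It was not called, at -0.07 on the log2 scale (limma adjusted p = 0.696). Of 26 mitotic genes 1 rose (3.85%) and 2 fell (7.69%), both shares below those of all genes, with a median of 0.02. Mki67, the Ki-67 antigen, rose by 0.96 from 8.20 ± 0.14 to 9.16 ± 0.31 (limma adjusted p = 0.00129), and Kif23 and Bub1b fell by 0.60 and 0.44, calls that ended under 9 and 7 of 18 alternatives.

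**Figure D5:**
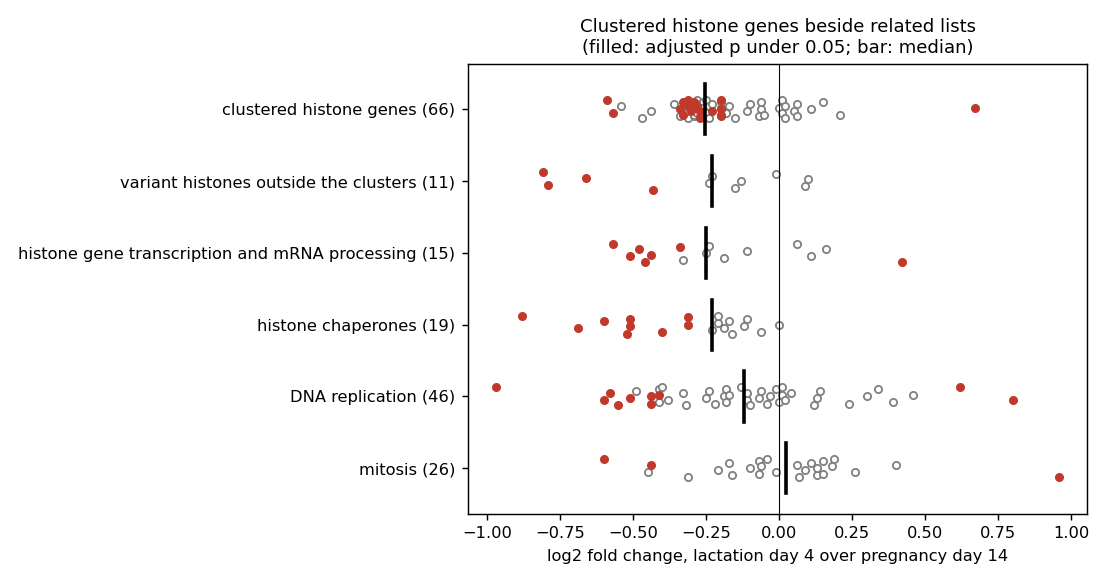
Log2 fold change of each gene, lactation day 4 over pregnancy day 14, in the clustered histone genes and 5 related lists, with the number of genes in parentheses. Filled points passed an adjusted p of 0.05 in limma and the bar is the median, which runs from -0.26 for clustered histone genes to -0.12 for DNA replication and 0.02 for mitosis.

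Lactation replicate 3 was low in the replication and mitosis lists too, with median deviations of -0.36 and -0.50 against -0.02 to 0.08 and 0.09 to 0.26 on the other lactation arrays. On the pregnancy arrays the replication list lay between 0.01 and 0.10 and the mitosis list between -0.08 and 0.08. The median of the clustered histone genes was 0.13 to 0.23 on pregnancy replicates 1 to 3, -0.02 on pregnancy replicate 4 and -0.10 to 0.08 on lactation replicates 1, 2 and 4. Whether the lists differ in this was not tested.

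The 10 luminal and milk markers had mean values of 8.46 to 12.54 over the 8 arrays. Of these 10, 9 were called, against 25.8% of all genes in either direction. The epithelial genes Krt19, Cdh1, Krt18 and Krt8 fell by 1.34, 1.19, 1.03 and 0.96 on the log2 scale, more than any clustered histone gene. The milk protein genes Csn2, Csn1s1, Wap and Lalba rose by 0.36 to 1.12 and Elf5, a regulator of alveolar cells, by 0.29, while Epcam was not called. Of the markers of other cells, some lists moved with the stage and others had few or no calls. Over all genes 16.1% were called lower and 9.73% higher. T cell markers were lower in 7 of 8 cases (87.5%, median -1.27) and fibroblast markers in 5 of 6 (83.3%, -1.03). Macrophage markers were lower in 3 of 8 (37.5%, -0.68) and red cell markers in 3 of 4 (75%, -0.78). No marker in these lists rose. B cell markers were lower in 1 of 7 (14.3%, -0.94) and basal markers in 1 of 5 (20%, -0.07), shares near that of all genes. Neutrophil markers had 1 rise and 1 fall of 8 (12.5% each, -0.01), also near the shares of all genes. Endothelial markers had no call of 4 (0.05) and adipocyte markers 1 rise of 5 (20%, 0.86). The median deviation of the T cell markers ran from -1.08 to -0.22 on lactation arrays and from -0.11 to 1.54 on pregnancy arrays. The B cell markers ran from -0.80 to -0.01 and from -0.76 to 1.34. Macrophage markers ran from -1.17 to 0.23 and from 0.10 to 0.71. For the fibroblast markers the range was -1.40 to 0.01 and 0.27 to 1.15. T cell markers were highest on pregnancy replicate 2, which also had the highest median of the histone genes (0.23). Of the pregnancy arrays, replicate 4 was lowest for T cell markers. On lactation replicate 3 the histone genes were lowest (-0.32). There the T cell and macrophage medians were the highest of the lactation arrays (-0.22 and 0.23). On lactation replicate 4, lowest for T cell markers (-1.08), the histone median was -0.07. The part of these cells in the histone values was not tested.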

How the data were processed

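The 8 samples, 4 per stage, were each hybridised to 1 Affymetrix whole-transcript array and were grouped by the sample titles. The values deposited by the authors are log2 signals per probe set made with GC-RMA, the tools being GCRMA and Partek according to the submitters' processing notes, with versions, options and build not given in the sources used here. The table held 35556 probe sets, 26836 of them with a gene symbol. Symbols were updated through the RefSeq gene table of GRCm38.p6, leaving 25050 genes, each with its brightest probe set (for the 2 equal probe sets of Hist1h2bq, either gives the same value). A second deposited table held the same log2 values. The authors' values were not normalized further and run from 2.04 to 13.03, so changes near either end can be compressed. Stages were compared in limma 3.58.1 (R 4.3.3) with a variance trend on signal. P-values were adjusted by Benjamini and Hochberg's method across all genes, and the procedure was tested on simulated data. The number of arrays limits the precision, and the median half-width of a 95% confidence interval was 0.22 for the members. Named genes were the called members, the brightest member of each type and those with the highest and lowest log2 fold change, any member whose probe sets were called in opposite directions (none was), up to 3 rises and 3 falls of each related list, and Slbp, Npat, Pcna and Mki67. Hist2h2be, Hist1h1c, Hist1h1a, Hist1h1d, Hist1h2aa, Hist1h2ba, Hist3h2ba, Hist3h2bb-ps, Hist4h4, H3f3a, H2afx and Cenpa were added afterwards. So were the luminal and milk markers and the second probe sets of Hist2h3c2 and Hist1h3d. Members and lists were chosen with earlier results of these data known. Alternatives covered the variance model, scaling, a filter on dim genes, the choice of probe set, the naming, the replicate number as a block and each array left out.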

Additional observations from a re-analysis of the deposited data

Results flagged for a closer look

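A sample far from the other 3 of its stage was found in 3 of 100 groups of 4 values examined, and chance alone flags about 1 in 20. In Hist1h3b, pregnancy day 14 replicate 4 was lowest, at 11.33 against 11.53 to 11.56 on the other pregnancy arrays. In Hist1h3e the same array was lowest, at 11.27 against 11.49 to 11.51. In Pcna, lactation day 4 replicate 3 was lowest, at 8.77 against 9.20 to 9.25 on the other lactation arrays.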

How the results depend on the processing

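The rise of Hist1h2bc and the fall of Hist3h2a kept direction and call under all 18 alternatives, and no named gene with a call changed sign. The number of clustered histone genes called lower, 19 as reported, was 29 of 59 when only the brighter 60% of genes were tested. In that setting 28.1% of all genes tested were called lower, against 16.1% as reported. The number was 4 with arrays centred on the median of all genes. It was 1 with arrays centred on the median of the brighter 60% of genes. It was 7 with every probe set tested, 5 without an intensity trend and 5 after quantile normalization. The number called higher was 2 with arrays centred on the median of all genes, 7 centred on the brighter genes and 2 with the mean of all probe sets of a gene. The median of the clustered histone genes moved from -0.26 to -0.08 when centred on the brighter genes. Over all genes, centring on the median of all genes gave 3719 higher genes, and centring on the brighter genes 10807 higher and 2373 lower, against 2438 and 4025 as reported, a split of directions that turned with the scaling. Centring adds 1 constant to all values of an array, so every log2 fold change moves by the same amount. The number tested also differed with only the brighter 60% of genes (15030), with every probe set (35556) and with the symbols of the deposited table (25072). What else lay behind these changes was not tested. Leaving out each array in turn gave 2 to 37 members called lower, 1 to 2 called higher, a median of -0.33 to -0.18, 1537 to 2487 genes called higher and 2878 to 3939 called lower. With the replicate number as a block, 16 members were called lower and 1 higher, with 13 of the 16 shared with the fit without it. The labels give the stages the same replicate numbers but do not say what ties them. In replicate order the titles also carry letters, A, B, C and E in lactation and A, B, C and F in pregnancy, without a meaning given. Deviations of same-numbered arrays correlated at 0.242, -0.164, 0.151 and 0.178 across genes. Not every array correlated best with the one of its own number, so they were not treated as pairs.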
